A study of Mus musculus with 30 samples.

Results

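Transcripts of genes grouped as erythroid and reticulocyte genes were followed in blood leukocytes of mice given cyclophosphamide, an alkylating agent that kills dividing cells. The 9 genes were Alas2, Hba-a1, Bnip3l, Slc2a1, Bsg, Mkrn1, Dcaf12, Gabarapl2 and Marchf8, out of 13027 features on the array. They were chosen by gene symbol, with earlier results of these data known. Each was represented by 1 probe, and all 9 had enough values to be tested. Peripheral blood leukocytes came from mice of the inbred strain DBA/2. There were 4 untreated samples, and 4, 4 and 3 samples taken 1, 2 and 5 days after intraperitoneal injection of 83 mg per kg cyclophosphamide. The labels call the samples independently harvested. Each was measured in 2 technical replicates on 2-colour arrays, with the blood sample in Cy5 and a pool of bone marrow cells in Cy3 as the reference. The labels call the marrow pool untreated, while their treatment field for it names cyclophosphamide.

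Red cells arise in the bone marrow from precursors that make hemoglobin and then lose their nucleus. The young red cell that enters the blood, the reticulocyte, still carries RNA. It clears its mitochondria by autophagy and many of its proteins through ubiquitin ligases before it is mature. Alas2, the erythroid form of the first enzyme of heme synthesis, and alpha globin, encoded by Hba-a1, serve hemoglobin production. Bnip3l, also called Nix, is the mitophagy receptor of reticulocytes, and Gabarapl2 is a protein of the autophagosome membrane. Mkrn1 and Marchf8 are ubiquitin ligases, Marchf8 being known to act on the transferrin receptor, and Dcaf12 is a substrate receptor of a cullin ubiquitin ligase. Slc2a1 is the glucose transporter GLUT1, and Bsg, or basigin, is a membrane glycoprotein that carries lactate transporters to the cell surface. Of the 9 genes, only Alas2 and Hba-a1 are confined largely to the red cell lineage, and the others are also used by leukocytes.

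All values are log2 ratios of blood over the marrow reference, so that 0 stands for equal signal and -1 for 1 doubling less in blood. No source used here gives the base of the logarithm, and it was taken as 2. The columns are centred near 0, with medians from -0.0028 to 0.025, so the ratios show unequal change and not amounts. In bulk samples of this kind, fewer cells of a type and less RNA per cell cannot be told apart. Columns held values for 39.5% to 69.9% of the 13443 probes, and day 2 replicate 1 had the fewest, 5471 and 5314 in its 2 columns. Changes are the first group minus the second with the standard error (SE) of a limma fit over all 15 samples. A gene is called at a Benjamini-Hochberg adjusted p under 0.05 over 6515 features. The number of samples limits the precision, and the p-values measure the spread between these samples only.

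The samples were leukocyte preparations, and the erythroid genes were read in part. Ahsp and the adult beta globins were not analysed here. Slc4a1, the anion exchanger of red cells, had a value in 0 of 15 samples, Tfrc in 4 and Epor in 6. Gata1, the main erythroid transcription factor, had a value in all 15 samples and a mean log2 ratio between -0.46 ± 0.25 (SD, n = 4, untreated) and -0.05 ± 0.08 (SD, n = 4, day 1). Klf1, another erythroid factor, was read in 11 samples, with an untreated standard deviation of 2.59 over 3 samples. Of 37 genes listed under red cell membrane and skeleton 13 had enough values to be tested, among them Rhag, Rhd, Kel, Ermap and Ank1. Their mean log2 ratio over the 10 with values in all samples ran from -1.51 to -0.73 in untreated samples, from -1.25 to -1.03 at day 1, from -1.48 to -0.93 at day 2 and from -1.01 to -0.77 at day 5. Of 37 listed genes of erythroid transcription and signalling 10 were tested, and the mean over the 6 complete ones, Gata1 and Zfpm1 among them, lay between -0.76 and -0.14 in all samples. The ratios of Hba-a1 lay below 0 in all samples. Which cells carried the 9 transcripts was not tested.

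The promoters of Alas2 and Hba-a1 are shown because, among the 8 windows found for 7 of the 9 genes, theirs were the ones that held a GATA site, the motif of Gata1. Sequences are from RefSeq on GRCm38.p6. Each run is the 250 bases before the annotated start on the gene's strand. Capitals mark GATA sites (AGATAA and TGATAA, or AGATAG and TGATAG, on either strand) and, in Alas2, matches to CCNCNCCC on either strand, the CACCC box of Kruppel-like factors; the 4 matches in Alas2 partly overlap.
Alas2, chrX:150547167-150547416, plus strand: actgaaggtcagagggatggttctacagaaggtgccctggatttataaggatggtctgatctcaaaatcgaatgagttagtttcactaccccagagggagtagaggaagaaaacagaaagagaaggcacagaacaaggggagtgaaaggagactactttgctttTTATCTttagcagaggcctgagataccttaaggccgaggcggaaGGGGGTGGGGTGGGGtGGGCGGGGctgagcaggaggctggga
Hba-a1, chr11:32283422-32283671, plus strand: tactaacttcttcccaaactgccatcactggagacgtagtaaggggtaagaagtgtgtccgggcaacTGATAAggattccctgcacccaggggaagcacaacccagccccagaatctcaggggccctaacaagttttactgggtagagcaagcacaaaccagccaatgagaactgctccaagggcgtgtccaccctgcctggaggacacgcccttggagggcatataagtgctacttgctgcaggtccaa
The GATA site of Alas2 begins 86 bases before the start and lies on the opposite strand, and that of Hba-a1 begins 183 bases before it. A GATA site was present in 29.8% of all 32851 windows of 300 bases (250 before and 50 after the start). The CACCC box was present in 6 of the 7 genes with a window, all but Hba-a1, and in 49.5% of all windows. The NF-E2 core TGANTCA was found in 0 of the 7 and in 7.81% of all windows. The iron-responsive loop CAGTGN was found 0 times in the 50 transcribed bases of the Alas2 window. The rest of the Alas2 transcript was not searched, so this count does not show whether the transcript holds such a loop. A match describes letters in the window and shows no binding.

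Alas2, the gene of heme synthesis, showed the widest range of the 9. It read -0.47, -0.30, 0.39 and 0.77 in untreated samples 1 to 4, and -1.73, -1.60, -0.73 and -1.15 at day 1. At day 2 it read -1.33, -3.24, -3.05 and -3.30, and at day 5 it read 0.64, 0.49 and 1.39. All day 1 and day 2 samples lay below all untreated and day 5 samples, and day 2 replicate 1 fell within the range of day 1. The untreated and day 5 samples overlapped.

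Against untreated, Alas2 was lower by 2.83 ± 0.40 (SE) at day 2, which is 7.11-fold, with a 95% interval of the log2 change from -3.68 to -1.98 and a limma adjusted p of 2.43e-04. At day 1 its change was -1.40 ± 0.40, with a limma adjusted p of 0.058, and the untreated and day 1 samples did not overlap. Alas2 rose by 3.57 ± 0.43 from day 2 to day 5, or 11.9-fold, with a limma adjusted p of 3.01e-05. Its rise from day 1 to day 5 was 2.14 ± 0.43, or 4.40-fold (limma adjusted p 0.0040). The day 5 mean of 0.84 ± 0.48 (SD, n = 3) exceeded the untreated mean of 0.10 ± 0.58 (SD, n = 4) by 0.74, with an interval from -0.18 to 1.66 and an adjusted p of 0.39. Without day 2 replicate 1 the change at day 2 was -3.30 (adjusted p 3.53e-05), and the step from day 1 to day 2, -1.43 with adjusted p 0.12 over all samples, became -1.90 with adjusted p 0.020.

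**Figure D1:**
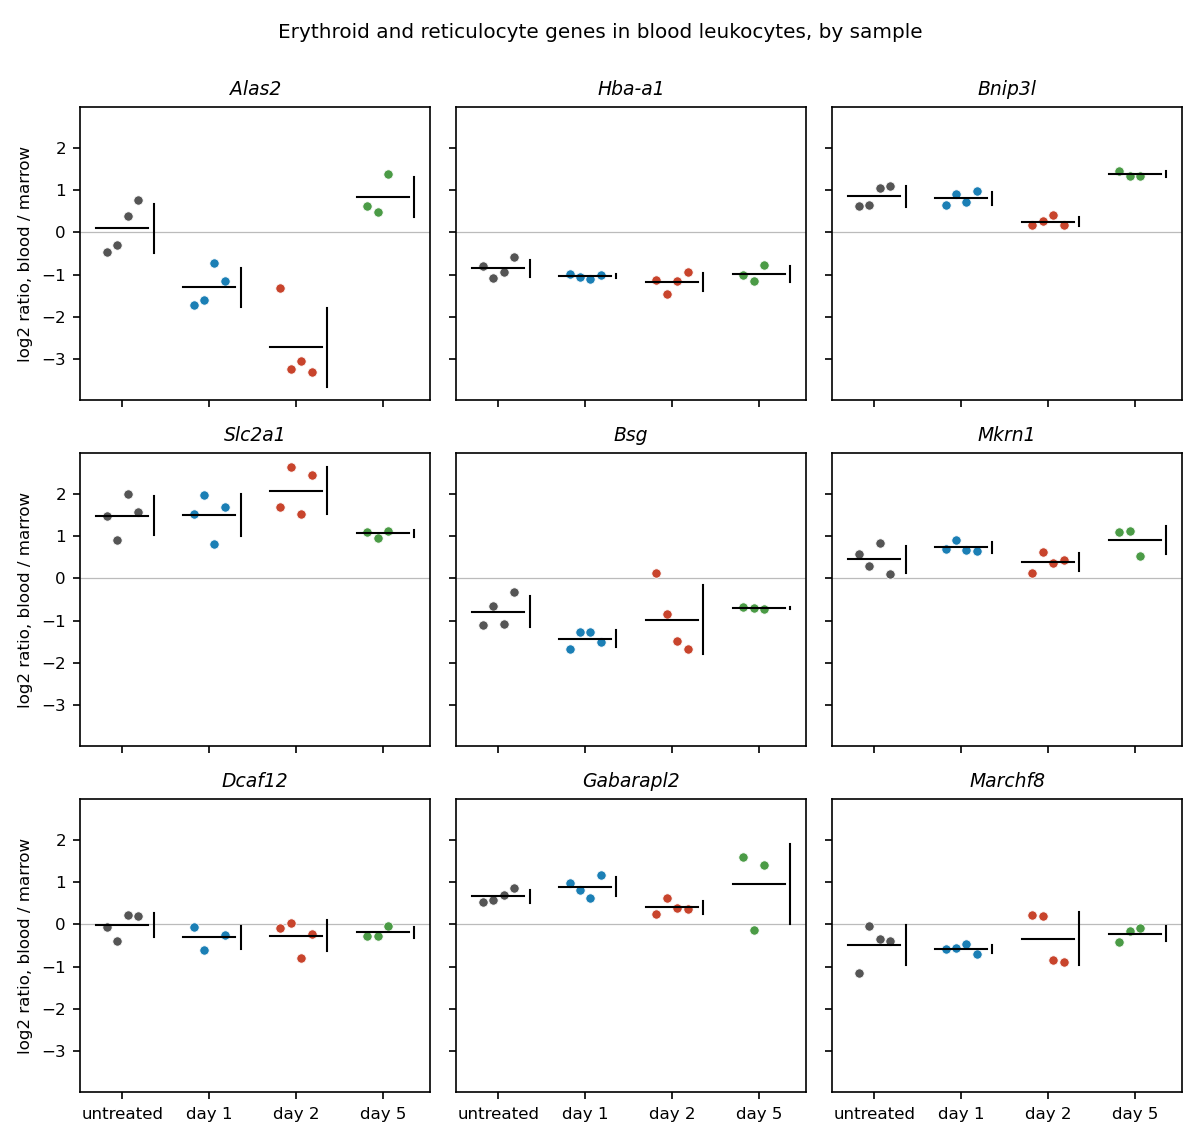
Log2 ratio of blood over the marrow reference (vertical axis) for each of the 9 genes in every sample, by group; horizontal lines are group means and vertical lines 1 SD. Alas2 lies lowest at day 2, where replicate 1 (-1.33) stands above the other 3 samples, while Bnip3l drops at day 2 and is highest at day 5.

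Hba-a1, alpha globin, stayed in a narrow band. It read -0.80, -1.07, -0.94 and -0.59 in untreated samples, -0.98, -1.05, -1.10 and -1.02 at day 1, -1.12, -1.46, -1.16 and -0.94 at day 2, and -1.01, -1.15 and -0.78 at day 5. The samples of every pair of groups overlapped. Its change at day 2 was -0.32 ± 0.13 with an interval from -0.60 to -0.05 and a limma adjusted p of 0.12, and no comparison was called. With both technical columns kept and the sample as a random block this change, still -0.32, was called (limma adjusted p 0.013). That fit took the same correlation between technical columns for all features. The columns of Hba-a1 differed by a median of only 0.022, beside a residual SD of 0.18 between samples. How far they acted there as added samples was not tested. The Hba-a1 probe may also detect its near-identical neighbour Hba-a2, which was not analysed here, so the 2 alpha globin genes are not separated. The changes of Alas2 and Hba-a1 at day 2, -2.83 and -0.32, stand side by side, and the difference between the genes was not tested.

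Bnip3l, the mitophagy receptor, fell at day 2 and then rose. It read 0.62, 0.65, 1.06 and 1.10 in untreated samples and 0.66, 0.91, 0.71 and 0.97 at day 1. At day 2 it read 0.18, 0.26, 0.41 and 0.18, and at day 5 1.46, 1.33 and 1.35. All day 2 samples lay below every other sample and all day 5 samples above every other sample, while untreated and day 1 samples overlapped. It was lower by 0.60 ± 0.13 (SE) at day 2 than in untreated samples, or 1.51-fold (limma adjusted p 0.0051). From day 2 to day 5 it rose by 1.12 ± 0.14, or 2.18-fold (limma adjusted p 3.01e-05), and from day 1 to day 5 by 0.57 ± 0.14 (limma adjusted p 0.010). The step from day 1 to day 2 was -0.55 (limma adjusted p 0.048) and lost its call in 12 of 19 alternatives. The excess of day 5 over untreated, 0.53 with an interval from 0.24 to 0.82, had a limma adjusted p of 0.076.

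Gabarapl2, of the autophagosome membrane, read 0.52, 0.58, 0.70 and 0.86 in untreated samples, 0.97, 0.82, 0.63 and 1.17 at day 1, 0.24, 0.62, 0.40 and 0.37 at day 2, and 1.60, -0.13 and 1.41 at day 5. Day 5 replicate 2 was the lowest of all 15 samples, and its technical replicates read -0.92 and 0.65. These differ by 1.57, where the median technical difference of the gene was 0.053. No comparison was called over all samples, and the day 5 group spans both the highest and the lowest values of the gene. Without day 5 replicate 2 Gabarapl2 was higher at day 5 than at day 2 by 1.10 (limma adjusted p 3.03e-04) and than in untreated samples by 0.84 (limma adjusted p 0.014), so this 1 sample decides the call.

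Among the ubiquitin ligases, Mkrn1 read 0.57, 0.30, 0.84 and 0.10 in untreated samples, 0.71, 0.92, 0.67 and 0.65 at day 1, 0.13, 0.64, 0.36 and 0.44 at day 2, and 1.09, 1.11 and 0.53 at day 5. Day 5 replicate 3 lay within the day 2 range and the other day 5 samples above it. Mkrn1 rose from day 2 to day 5 by 0.52 ± 0.18 (SE), or 1.44-fold, with a limma adjusted p of 0.047. The call was lost in 10 of 18 alternatives, where the adjusted p reached 0.17, among them the fits without day 2 replicates 1, 3 or 4 and without day 5 replicates 1 or 2.

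Marchf8, the ligase known for the transferrin receptor, read -1.15, -0.03, -0.35 and -0.39 in untreated samples and -0.58, -0.55, -0.47 and -0.70 at day 1. It read 0.21, 0.19, -0.86 and -0.90 at day 2 and -0.42, -0.15 and -0.09 at day 5. The 4 day 2 samples fell into a high pair and a low pair on either side of the day 1 and day 5 values. No comparison was called, and its changes against untreated had intervals from -0.65 to 0.46 at day 1, from -0.41 to 0.70 at day 2 and from -0.34 to 0.86 at day 5. Dcaf12, the ligase substrate receptor, had a value in 14 of 15 samples, between -0.79 and 0.23, and all its pairs of groups overlapped. No comparison of Dcaf12 was called, with changes against untreated between -0.30 and -0.18.

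Slc2a1, the glucose transporter, fell from day 2 to day 5, when Alas2 rose. It read 1.47, 0.91, 2.01 and 1.59 in untreated samples, 1.53, 1.99, 0.81 and 1.69 at day 1, 1.69, 2.66, 1.53 and 2.45 at day 2, and 1.10, 0.97 and 1.14 at day 5. The day 5 samples lay below all day 2 samples and inside the ranges of the untreated and day 1 groups. It fell by 1.01 ± 0.31 on the log2 scale from day 2 to day 5, or 2.02-fold (limma adjusted p 0.024). The call was lost in 6 of 18 alternatives, where the adjusted p reached 0.081, among them the fits without day 2 replicates 2 or 4 and without day 5 replicates 1 or 2. Its change at day 2 against untreated was 0.59, with an interval from -0.02 to 1.19 (limma adjusted p 0.20).

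Bsg, the chaperone of lactate transporters, read -1.11, -0.65, -1.07 and -0.33 in untreated samples and -1.68, -1.28, -1.27 and -1.51 at day 1. It read 0.12, -0.85, -1.49 and -1.68 at day 2 and -0.68, -0.71 and -0.72 at day 5. All day 1 samples lay below all untreated and day 5 samples, and the day 2 samples ran from the highest value of the gene to the lowest. Its change at day 1 was -0.64 with an interval from -1.27 to -0.01 and a limma adjusted p of 0.23. No comparison of Bsg was called in the fit over all samples. Day 2 replicate 1 held the highest value, and without it the change at day 2 against untreated moved from -0.18 to -0.55 (limma adjusted p 0.10).

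Counted over the set, 0 of 9 genes were called at day 1 against untreated, where 4.60% of all features were called. At an unadjusted limma p under 0.05 Alas2 and Bsg passed, ranking 359 and 1336 of 6515 features by p. At least 1336 features thus passed as well. At day 2 against untreated 2 of 9 were called, where 12.7% of features were called, and both were lower, as were 7.84% of features. There Hba-a1 also passed an unadjusted limma p under 0.05, ranking 1341 of 6515 by p. At day 5 against untreated 0 of 9 were called (1.09% of features). Bnip3l and Mkrn1 passed an unadjusted limma p under 0.05, ranking 130 and 661 of 6515 by p. From day 1 to day 2 there was 1 call, Bnip3l (1.15% of features, 0.614% called lower). From day 1 to day 5 there were 2 calls, both higher (18.8% of features, 9.67% called higher). Between day 2 and day 5 there were 4 (25.5% of features), 3 higher and 1 lower, where 12.8% of features were called higher and 12.7% lower. The moderated F test over the 4 groups called 2 of 9, Alas2 and Bnip3l, where it called 22.7% of features. Comparisons with a group in common share its samples.

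The groups did not overlap for 2 of 9 genes at day 1 against untreated (18.3% of features), 2 at day 2 (21.4%) and 1 at day 5 (13.6%). Between day 1 and day 2 this held for Bnip3l, Mkrn1 and Gabarapl2 (9.21% of features), between day 1 and day 5 for 4 genes (30.5%) and between day 2 and day 5 for 3 genes (30.4%). The median change of the 9 was -0.26 at day 2 against untreated, beside 0.06 over all features. Of the 9, 7 were negative, where 58.3% of all features were positive. Between day 2 and day 5 the median was 0.28, beside -0.07 over all features, and 8 of the 9 were positive, as were 43.0% of all features. Alas2 and Bnip3l were thus the genes called lower at day 2 and higher from day 2 to day 5, and 5 of the 9 were called in no comparison. The 9 genes were chosen with earlier results of these data known. Their counts and medians beside those of all features are therefore a description and no test of the set.

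**Figure D2:**
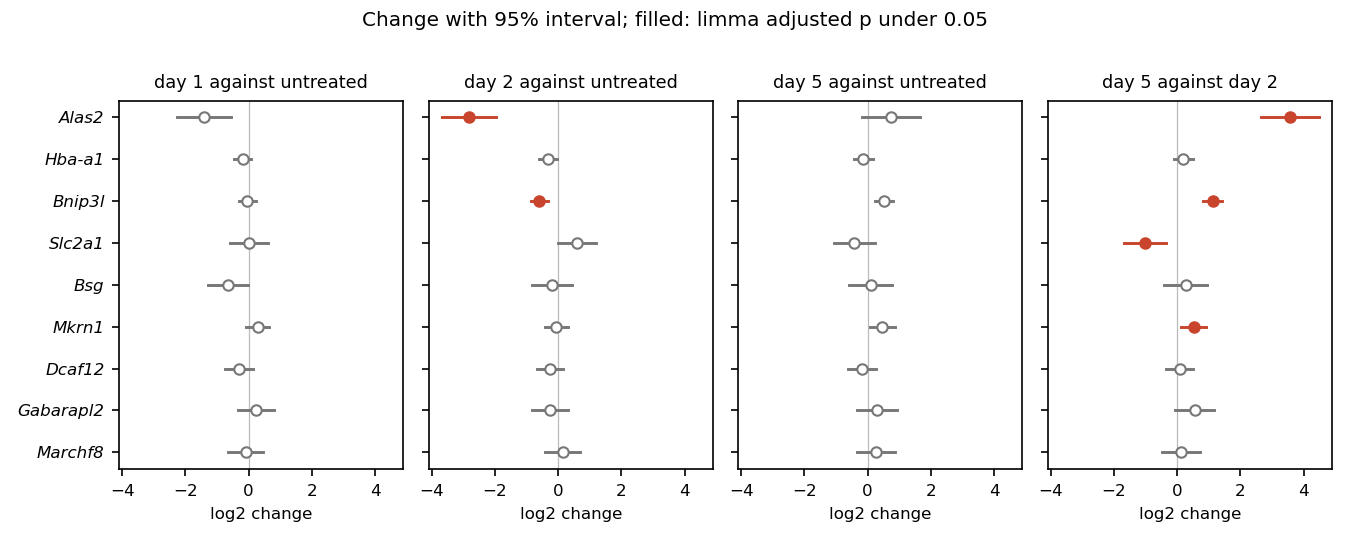
Log2 change with its 95% interval (horizontal axis) for the 9 genes in 4 comparisons; filled red points have a limma adjusted p under 0.05. Alas2 shows the widest excursions, -2.83 at day 2 against untreated and 3.57 from day 2 to day 5, and Slc2a1 is the one called lower at day 5 than at day 2.

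The order of the group means differed between genes. For Alas2 and Bnip3l it ran day 2, day 1, untreated, day 5 from low to high. Neighbours in the Alas2 order did not differ by the test (adjusted p 0.12, 0.058 and 0.39), and in the Bnip3l order only day 2 and day 1 did (0.048, then 0.88 and 0.076). For Slc2a1 the order ran day 5, untreated, day 1, day 2, and for Mkrn1 it ran day 2, untreated, day 1, day 5, with no called neighbours in either.

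Across the 15 samples the values of the 9 genes did not run in parallel. Alas2 and Bnip3l had a Pearson r of 0.84, which fell to 0.26 for deviations from the group means, so most of the likeness lies between groups. Alas2 and Hba-a1 had an r of 0.58 (0.33 within groups), and Alas2 and Slc2a1 one of -0.65 (-0.26 within groups). Among the members with values in all samples, the r of Alas2 within groups was highest with Bsg, 0.73, and lowest with Mkrn1, -0.57. Bsg and Marchf8 had an r of 0.72 and 0.74 within groups. These values describe 15 samples that share the reference pool, the array and, for each sample, the same RNA, and no test was made.

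The genes most like Alas2, among 3561 named features with values in all 15 samples, were Klk11 (r 0.97), Lce1d (0.97), Fam210b (0.96), Tuba3a (0.96), Serpina1a (0.96), Pdia4 (0.96), Egln3 (0.96) and Syt9 (0.95). Of these, Fam210b encodes a mitochondrial protein with a part in erythroid iron use. No red cell role is stated here for the others, the closest ones Klk11 and Lce1d included. Egln3 encodes a prolyl hydroxylase of the hypoxia pathway, Pdia4 a disulfide isomerase, Syt9 a synaptotagmin and Serpina1a a protease inhibitor of plasma. Within groups their r with Alas2 lay between 0.67 and 0.80. Their changes at day 2 against untreated ran from -0.90 (Fam210b) to -2.87 (Syt9), and from day 2 to day 5 from 1.25 (Fam210b) to 3.51 (Syt9). They were chosen by their r with Alas2 over these same samples, so these directions follow from the choice and are a description only. The alpha globin gene was not among them, ranking 741 of 4919 features by r with Alas2, and Bnip3l ranked 249.

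**Figure D3:**
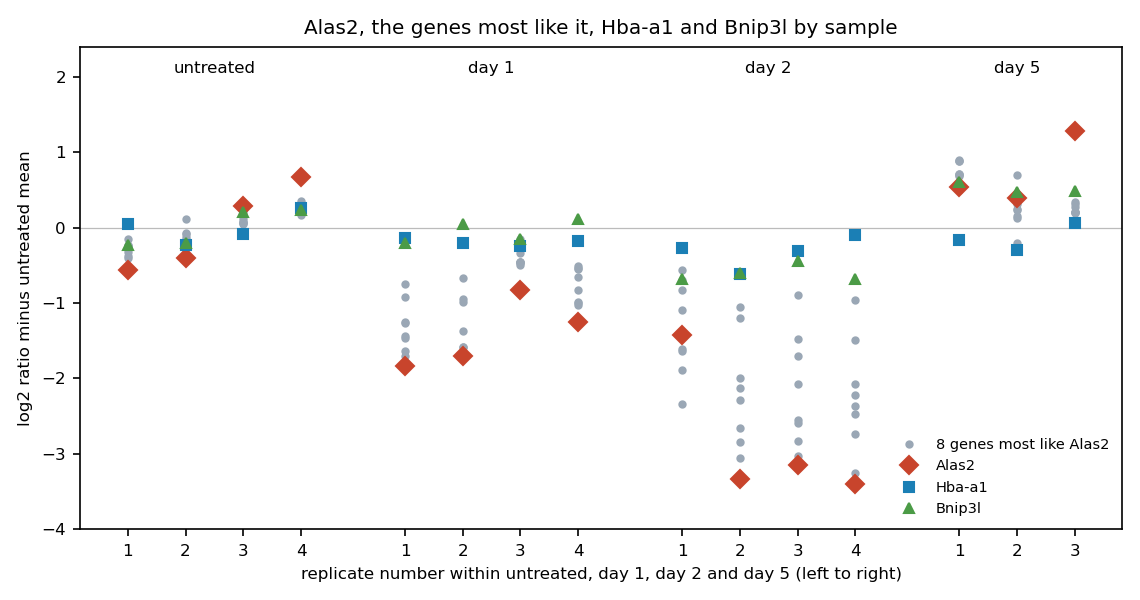
Log2 ratio minus the untreated mean (vertical axis) for Alas2, the 8 genes most like it, Hba-a1 and Bnip3l in each sample, ordered by group. The 8 genes, chosen for their likeness to Alas2 in these samples, have their lowest group mean at day 2 as it does, whereas Hba-a1 stays near its untreated mean.

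The other genes most like each member were, at most, Ptma for Hba-a1 (r 0.84), Rnf32 for Bnip3l (0.93), Cmtm6 for Slc2a1 (0.91), Ddx54 for Bsg (0.87), Wfdc15b for Mkrn1 (0.91), Ribc2 for Gabarapl2 (0.83) and Irak1bp1 for Marchf8 (0.84). Dcaf12 lacked a value in 1 sample and was not ranked. Within groups these values stayed between 0.64 and 0.90.

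Of 7 tested genes of heme synthesis, Alas2 alone was called at day 2 against untreated. Fech, the last enzyme of the pathway, had a mean of -0.35 ± 0.70 (SD, n = 4) in untreated samples and -0.68 ± 0.68 (SD, n = 4) at day 2, with no comparison called. Ppox, the enzyme before it, read -2.31 ± 0.13 untreated, -2.62 ± 0.14 at day 1, -1.66 ± 0.54 at day 2 (SD, n = 4 each) and -2.46 ± 0.37 at day 5 (SD, n = 3). It rose by 0.96 from day 1 to day 2 (limma adjusted p 0.046) and fell by 0.79 to day 5 (0.021), where Alas2 rose; the first call was lost in 12 of 18 alternatives and the second in 3 of 17. Slc25a39, a mitochondrial carrier needed for heme synthesis, rose with Alas2 from day 2 to day 5, by 0.86 ± 0.26 (limma adjusted p 0.026). That call was lost in 4 of 12 alternatives, among them the fits without day 5 replicates 1 or 2, where the adjusted p reached 0.091.

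Of the 3 tested globin genes none was called in any of the 6 comparisons, with 0 to 1 of them passing an unadjusted p under 0.05 in a comparison. The embryonic globins Hba-x and Hbb-bh1 had group means between -0.02 and 0.17 and between 0.11 and 0.46. Their values sat near 0, the level of equal signal in blood and marrow.

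Among 16 tested genes of iron handling, Slc40a1 and Pcbp1 moved most. Slc40a1, the iron exporter ferroportin, read -1.64 ± 0.12 untreated, -1.18 ± 0.18 at day 1 and 0.43 ± 0.21 at day 2 (SD, n = 4 each), and -3.36 ± 0.66 at day 5 (SD, n = 3). It rose by 2.07 ± 0.21 (SE) at day 2 and fell by 3.79 ± 0.22 to day 5, with limma adjusted p 3.77e-05 and 7.82e-08. Pcbp1, an iron chaperone that also binds RNA, ran the other way, at 0.46 ± 0.16 untreated, -1.74 ± 0.32 at day 2 (SD, n = 4 each) and 1.02 ± 0.46 at day 5 (SD, n = 3). It fell by 2.20 ± 0.23 at day 2, or 4.60-fold (limma adjusted p 3.77e-05), and rose by 2.76 ± 0.24 to day 5, or 6.78-fold (limma adjusted p 4.99e-06). The iron list had 1 gene called higher and 4 lower at day 2, the lower ones being Pcbp1, Hamp, Ncoa4 (lost in 12 of 18 alternatives) and Ftmt (lost in 3 of 14), and 4 higher and 2 lower from day 2 to day 5. Of all features 12.7% were called at day 2 against untreated and 25.5% from day 2 to day 5.

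Of 13 tested genes of the red cell membrane and skeleton list, limma called 0 at day 2 against untreated, where it called 12.7% of all features. In that comparison 1 of the 13 passed an unadjusted p under 0.05, as did at least 1341 of 6515 features. Their median change was 0.07, beside 0.06 over all features. On the way from day 2 to day 5, Stom and Tspo2 were called higher (Tspo2 lost its call in 11 of 17 alternatives) and Rhag, a channel protein of the Rh complex, lower by 0.84 ± 0.18 (SE; limma adjusted p 0.0024). Of 10 tested genes of erythroid transcription and signalling, 1 was called at day 2, Rb1, which was lower by 0.42 ± 0.12 (limma adjusted p 0.030) and lost its call in 8 of 18 alternatives. Gata1 was called in none of the 6 comparisons, its largest change being 0.41 at day 1 with adjusted p 0.071.

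Of 20 tested autophagy and mitophagy genes, Bnip3l and Fundc1 were called lower and Map1lc3b higher at day 2 against untreated. Fundc1, the mitophagy receptor of hypoxia, was lower by 0.80 ± 0.13 (SE; limma adjusted p 8.56e-04) and rose by 0.95 ± 0.14 to day 5 (1.97e-04). From day 2 to day 5 Bnip3l and Fundc1 were called higher, and Atg5, Atg12 (lost in 4 of 13 alternatives), Calcoco1, Rb1cc1 and Tomm20 lower. Of all features 12.8% were called higher and 12.7% lower there. Atg5, Rb1cc1 and Tomm20 were not followed through the alternatives. Map1lc3b, the autophagosome protein LC3B, read 0.10 ± 0.07 untreated and 0.88 ± 0.30 at day 2 (SD, n = 4 each). The list therefore held called members in both directions, and its median change at day 2, 0.14, lay above that of all features.

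Of 17 tested ubiquitin genes, Ube2l6, a conjugating enzyme, was called lower at day 2 by 2.41 ± 0.43 (SE), or 5.31-fold (limma adjusted p 0.0014). It read 0.71 ± 0.49 untreated, -1.69 ± 1.06 at day 2 (SD, n = 4 each) and 0.52 ± 0.47 at day 5 (SD, n = 3). Between day 2 and day 5, 6 of the 17 were called higher (Mkrn1, Ube2l6, Ube2c, Ube2r2, Fbxo9 and Rnf11) and Ube2b lower. Of all features 12.8% were called higher and 12.7% lower there. Ube2c and Ube2b were not followed through the alternatives. Fbxo9 rose by 1.49 ± 0.23 (limma adjusted p 2.20e-04). Of 13 tested genes of glucose and lactate transport and glycolysis, Slc2a1 alone was called from day 2 to day 5. At day 2 against untreated limma called 0 of the 13, and 2 passed an unadjusted p under 0.05, as did at least 1341 of 6515 features.

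Among 10 tested antioxidant genes of red cells, 2 (Txn1 and Glrx) were called higher and 2 (Gpx1 and Prdx1) lower at day 2 against untreated. In that comparison 12.7% of all features were called. The call of Glrx, a glutaredoxin, was lost in 12 of 18 alternatives, where the adjusted p reached 0.11, and that of Prdx1, a peroxiredoxin, in 1 of 18. Gpx1, glutathione peroxidase, fell by 1.27 ± 0.19 (SE; limma adjusted p 3.15e-04) and rose by 1.62 to day 5 (3.90e-05). Txn1, thioredoxin, rose by 1.00 ± 0.15 (3.38e-04) at day 2 and fell by 1.67 to day 5 (6.41e-06). Their directions at day 2 were opposite.

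**Figure D4:**
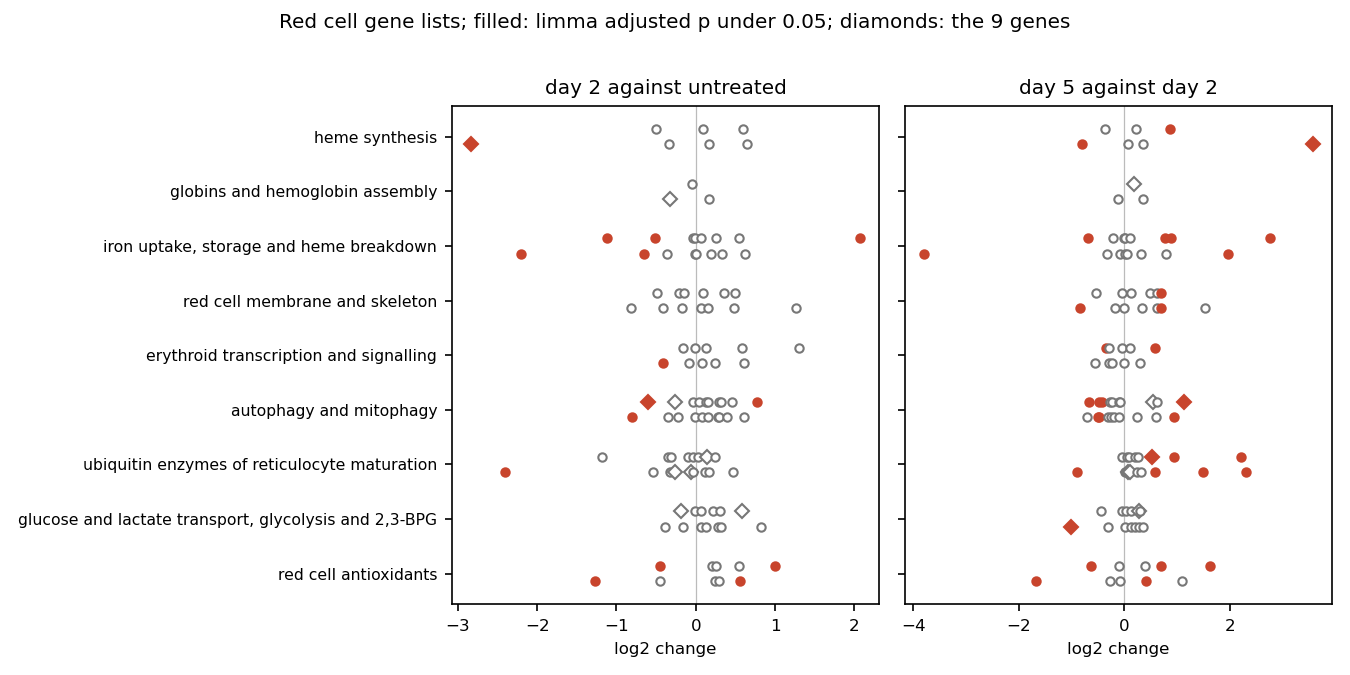
Log2 change (horizontal axis) of each tested gene of 9 red cell gene lists at day 2 against untreated and from day 2 to day 5; filled red points have a limma adjusted p under 0.05 and diamonds mark the 9 genes. Alas2 is the lowest point at day 2 and the highest from day 2 to day 5, away from the other heme genes.

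Markers of leukocytes moved in the same samples. At day 2 against untreated 12.7% of all features were called, 7.84% lower. In that comparison 5 of 7 monocyte markers were called lower. Their mean log2 ratio over 5 complete markers ran from 0.46 to 1.00 in untreated samples and from -0.28 to -0.18 at day 2. At day 5 it lay between 0.40 and 0.84. Of 10 neutrophil markers 5 were called higher and 0 lower at day 2, and 6 of the 10 changes were positive. Cd177, Ltf, Ngp and Prtn3 had lower means at day 2 than untreated, Cd177 at -3.06 against -2.44. The mean over 9 complete neutrophil markers was -1.67 to -1.34 untreated, -1.34 to -0.55 at day 2 and -1.87 to -1.42 at day 5. Platelet markers rose at day 1, 3 of 5 being called, where 4.60% of all features were called. Their mean over 5 markers was 1.78 to 1.97 untreated and 3.12 to 3.36 at day 1. At day 2 against untreated 2 of 8 B cell markers were called lower, and 3 of 9 T and NK cell markers lower and 1 higher. The part of these markers in the changes of Alas2, Bnip3l and the other genes was not tested.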

How the data were processed

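The deposited values are log2 ratios of Cy5 over Cy3, 1 per probe and column, with dyes per the labels; how the authors scanned, corrected, normalized and filtered them, and the base of the logarithm, were found in no source used here. Log10 ratios of 16-bit intensities of at least 1 could not exceed 4.82 and the values reach 5.76, so log2 was taken. Base e cannot be told apart from it, and all fold changes rest on this choice. Probes were named from the platform annotation, technical replicates (column r 0.829 to 0.957) and probes of a gene were averaged, and features with values in at least 3 of 4 samples (2 of 3 at day 5) of every group were tested, 6515 of 13027. The fit was made with limma (version 3.58.1, in R 4.3.3), all 15 samples and 4 group means, with Benjamini-Hochberg adjustment; the procedure was tested on simulated data. The members and gene lists were chosen with earlier results of these data known. Genes named beside the members are those called in any of the 6 comparisons, at most 5 per list by adjusted p, with erythroid markers named whether called or not, and the features with the highest r with each member; any other gene named was called in the comparison described and was named after its values were seen. Alternatives were quantile normalization, other filters, single technical replicates, a random sample block, only the groups compared, the replicate number as a block, a trended robust prior, array weights, separate probes and each sample left out.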

Additional observations from a re-analysis of the deposited data

Results flagged for a closer look

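Alas2 in day 2 replicate 1 read -1.33, far from the other 3 day 2 samples, which read from -3.05 to -3.30. The gap to the nearest of them, divided by the range of the group, was 0.871, above Dixon's 95% critical value for 4 samples. Of 26 groups of 4 samples examined over the 9 genes, 1 stood out in this way, where chance gives about 1 in 20 (5%). The same sample had the fewest probes with a value.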

How the results depend on the processing

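The calls of Alas2 and Bnip3l at day 2 against untreated and from day 2 to day 5, and of Alas2 from day 1 to day 5, held under all alternatives run (19 for the first, 18 for the others). The count at day 1 against untreated rose from 0 to 1 (Alas2) under quantile normalization, with features complete in all samples, with a random sample block, with only the 2 groups compared and with array weights, and ranged from 0 to 1 over single samples left out, being 1 without day 1 replicate 3. With the random block it was 3 at day 2 against untreated, Hba-a1 being added. At day 5 against untreated it was 1 (Bnip3l) with the random block. Over single samples left out it ranged from 0 to 1, being 1 (Gabarapl2) without day 5 replicate 2. From day 1 to day 2 it was 0 with no filter, with either technical replicate alone, with only the 2 groups, with the replicate block and with the trended robust prior, 2 with the random block, and ranged from 0 to 1, being 0 without day 1 replicates 2, 3 or 4 or day 2 replicates 2 or 4. From day 1 to day 5 it was 1 with technical replicate 1 alone and reached 3 in other settings. Over single samples left out it ranged from 2 to 3. In this comparison Bsg stayed uncalled in 9 of 11 settings other than samples left out. Gabarapl2 was called without day 5 replicate 2, with a change of 0.61 (limma adjusted p 0.025). From day 2 to day 5 the count was 2 with the replicate block and reached 5 in other settings. Over single samples left out it ranged from 2 to 4, being 2 without day 2 replicate 4 or day 5 replicate 1. Correlations of same-numbered deviations from the group means ran from -0.35 to 0.22. The same number gave a higher value than any other number in a few cases and a lower one than the best other number in most. With 3 or 4 samples a group these correlations cannot exclude a pairing by replicate number. The block changed no other count of members by over 1.5 times; it moved the features called from 300 to 107 for day 1 against untreated, from 75 to 33 for day 1 to day 2 and from 1664 to 1455 for day 2 to day 5.

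Of 54 changes of the 9 genes, 14 changed sign in some alternative, none of them called in the fit over all samples. Under quantile normalization Slc2a1 at day 1 was -0.40, Bsg at day 2 was 0.064 and Hba-a1 at day 5 was 0.0004, all against untreated. With technical replicate 2 alone Slc2a1 at day 1 was -0.0006 and Bsg at day 5 -0.018, both against untreated; with technical replicate 1 alone Gabarapl2 from day 1 to day 5 was -0.23; with array weights Dcaf12 from day 1 to day 2 was -0.10. With single samples left out, at day 1 against untreated Bnip3l ranged from -0.12 to 0.036, Slc2a1 from -0.18 to 0.24 and Marchf8 from -0.32 to 0.053. At day 2 against untreated Bsg ranged from -0.55 to 0.052, Mkrn1 from -0.18 to 0.068 and Marchf8 from -0.080 to 0.33. At day 5 against untreated Bsg ranged from -0.014 to 0.25 and Gabarapl2 from -0.026 to 0.84. Dcaf12 ranged from -0.061 to 0.21 from day 1 to day 2, and from day 1 to day 5 Hba-a1 from -0.042 to 0.14 and Gabarapl2 from -0.26 to 0.61. From day 2 to day 5 Dcaf12 ranged from -0.10 to 0.18 and Marchf8 from -0.070 to 0.30. The cause of these changes was not tested. Of 103 calls of genes named beside the members, 61 held in every alternative. Technical replicate 2 alone gave no value for Dcaf12 and Marchf8, and the complete-feature filter none for Dcaf12. Probes without a value limit which red cell genes can be read.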
